A study of Homo sapiens with 21 samples.

Results

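The genes of the ATP-binding cassette (ABC) superfamily were taken as the rows of the count table whose NCBI symbol reads ABC, a family letter from A to G and a number, together with TAP1 and TAP2. The table had 28395 rows, of which 48 matched, and 1 of them, the pseudogene ABCC13, was dropped. The remaining 47 genes comprised 12 of the ABCA family, 9 of ABCB, 11 of ABCC, 4 of ABCD, ABCE1, 3 of ABCF, 5 of ABCG and the TAP pair. Read counts sufficed for a test in 35 of them, and 12 did not pass the filter on low counts. The multidrug exporters ABCG2 and ABCC1 were among the tested genes, whereas ABCB1 was not.

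RNA was measured in Hs578T, a human triple-negative breast cancer (TNBC) cell line with wild-type genotype, in 21 libraries of polyA-selected RNA taken 8 h after treatment. The 7 groups of 3 replicates received DMSO as vehicle, THZ531 at 0.1 μM or at 1.0 μM, lapatinib at 3.16 μM, nilotinib at 1 μM, lapatinib at 3.16 μM with THZ531 at 0.1 μM, or nilotinib at 1 μM with THZ531 at 0.1 μM. THZ531 is a covalent inhibitor of CDK12 and CDK13, which act on elongating RNA polymerase II, lapatinib inhibits the EGFR and HER2 kinases, and nilotinib inhibits ABL and several other kinases. The comparisons ask how each compound alone, each combination and the high dose of THZ531 changed expression of the transporter genes, since the study concerns export of THZ531 from the cells. All results come from a single cell line. The replicates derive from independent experiments per the study, and p-values measure the spread between these libraries.

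ABC proteins share a nucleotide-binding domain that binds and hydrolyses ATP. In most families this drives a substrate across a membrane: ABCA and ABCG members move lipids and sterols, ABCB members move drugs, lipids, peptides, heme precursors or iron-sulfur compounds, ABCC members export organic anions and conjugates or regulate ion channels, and ABCD members import fatty acids into peroxisomes. ABCE and ABCF proteins have no membrane part and act on ribosomes and translation, and TAP1 and TAP2 together carry peptides into the endoplasmic reticulum for MHC class I. ABCG2 (BCRP), ABCB1 (P-glycoprotein) and ABCC1 (MRP1) are known for exporting many cancer drugs from tumour cells.

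Library totals lay between 97612207 and 112229052 counts, so counting error is small for all but the rarest members. Mesenchymal markers were high in DMSO (VIM 6845 and COL1A1 8060 CPM, counts scaled to library size), EPCAM was at 0.0364 CPM and CDH1 at 0.205 CPM, PGR was at 0 in every DMSO library and ESR1 at 0.364 CPM, while ERBB2 was present at 37.5 CPM, KRT18 at 83.7 CPM and the leukocyte gene PTPRC at 1.05 CPM. The summed level of the 5 luminal epithelial markers was 122 CPM in DMSO and 204, 196 and 168 CPM with the lapatinib combination, the nilotinib combination and 1.0 μM THZ531, and that of the 8 mesenchymal markers was 22600 CPM in DMSO and 32490, 30560 and 31470 CPM in the same order. Their part in the results below was not tested, and in bulk RNA fewer cells and less RNA per cell cannot be told apart. Changes are log2 fold changes (log2 FC) after scaling by the trimmed mean of M-values (TMM), which assumes that most genes keep their level, and a gene was called at an adjusted p under 0.05. Scaling to the 13 mitochondrially encoded mRNAs instead moved log2 FC by -0.69, -0.62 and -0.55 with the lapatinib combination, the nilotinib combination and 1.0 μM THZ531. Rises given here are therefore relative to the other nuclear genes. Mitochondrial mRNA scaling in turn assumes that those 13 mRNAs keep their level, which was not tested, and falls by it are relative to them. It also moved log2 FC by -0.138 with lapatinib alone and by -0.18 with nilotinib alone.

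Levels of different genes were compared as TMM-scaled CPM per kb of the canonical transcript. In DMSO the highest was ABCE1, which recycles ribosomes after translation stops, at 63.6 ± 6.65 CPM per kb (SD, n = 3), and its libraries (56.8 to 70.1) lay above those of every other member. The next were ABCD3, a peroxisomal importer of branched-chain fatty acids and bile acid intermediates (36.1 ± 3.18), and ABCF2, a cytosolic ABC protein (35.1 ± 0.577), whose libraries overlapped. On the scale of summed CPM, these 3 genes held 50.9% of the family's reads in DMSO. ABCF3 (15.9), ABCC4 (11.9), ABCB6 (10.0), ABCB8 (8.64) and ABCC3 (8.40 CPM per kb) followed, and 24 of the 47 members reached a mean of 1 CPM in DMSO. ABCG2 stood 11th at 5.69 ± 0.661 CPM per kb, and its libraries (4.94 to 6.19) overlapped those of ABCB10 (5.71 to 6.61) and ABCA2 (4.67 to 5.64). ABCC1 stood 19th at 1.06 ± 0.104 CPM per kb, with its 3 libraries (1.00 to 1.18) below all 3 of ABCG2. The sum of CPM over the family was 1054 ± 42.9 in DMSO and between 1053 and 1077 with 0.1 μM THZ531, lapatinib or nilotinib alone. It was 1164 ± 70.2, 1204 ± 42.9 and 1226 ± 22.6 with the lapatinib combination, the nilotinib combination and 1.0 μM THZ531 (SD, n = 3 each).

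**Figure D1:**
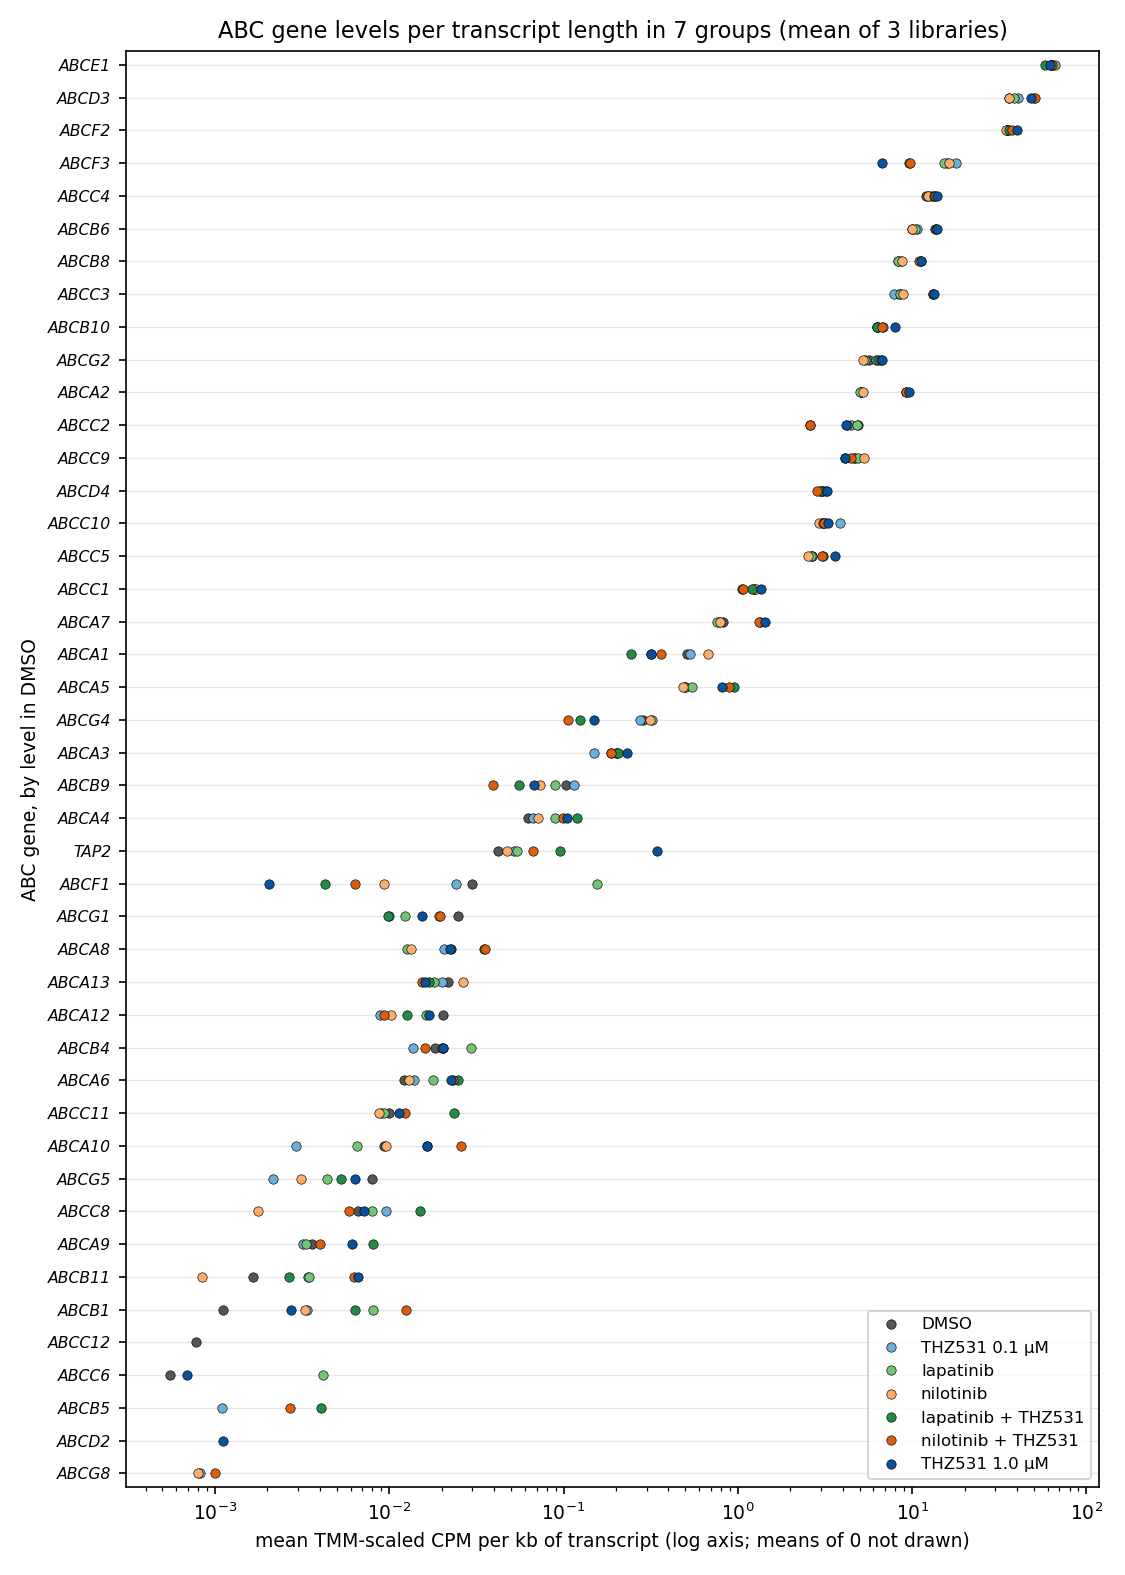
Mean TMM-scaled CPM per kb of canonical transcript (log axis) of the ABC genes in the 7 groups, ordered by level in DMSO. ABCE1, ABCD3 and ABCF2 lead in every group, ABCG2 lies in the upper part and ABCC1 lower, and means of 0 are not drawn.

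Of the 3 multidrug exporters ABCG2 was the highest and ABCB1 was near 0. In the main fit (edgeR, TMM scaling, all 21 libraries, no replicate block) neither ABCG2 nor ABCC1 passed the test in any comparison with DMSO. ABCG2 read 26.0, 20.8 and 24.9 CPM in the DMSO libraries, 29.4, 25.1 and 23.6 with 0.1 μM THZ531, 25.4, 21.1 and 20.99 with lapatinib, and 21.95, 22.3 and 21.3 with nilotinib. It read 31.4, 24.5 and 24.9 CPM with the lapatinib combination, 32.0, 26.7 and 24.7 with the nilotinib combination, and 27.1, 29.5 and 28.7 with 1.0 μM THZ531. The libraries of the combinations overlapped those of DMSO, and those of 1.0 μM THZ531 lay above them. By TMM scaling the 95% intervals of the log2 FC of ABCG2 were -0.08 to 0.42, -0.03 to 0.47 and -0.00194 to 0.50 (95% intervals with 14 residual degrees of freedom; edgeR adjusted p = 0.197, 0.105 and 0.0646) with the lapatinib combination, the nilotinib combination and 1.0 μM THZ531. By mitochondrial mRNA scaling ABCG2 was called lower in both combinations (log2 FC -0.51, adjusted p = 0.00933, and -0.40, adjusted p = 0.0416), whereas with the replicate number as a block it was called higher with the nilotinib combination (0.21, adjusted p = 0.0478). With 1.0 μM THZ531 the adjusted p over 10 ways of processing ranged from 0.0194 to 0.946, 5 of them under the threshold. Those 5 were DESeq2 and, all with TMM scaling, the replicate block, halved counts, only the groups compared and at least 10 counts in every library. The log2 FC ranged from -0.30, by scaling to mitochondrial mRNAs, to 0.28.

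For ABCC1, which exports glutathione and other conjugates, the DMSO libraries held 6.51, 7.70 and 6.54 CPM, and the 18 treated libraries ranged from 5.69 to 10.8 CPM. Its replicates spread most widely, with 10.2, 6.95 and 6.38 CPM in the lapatinib combination and 10.8, 7.59 and 8.24 with 1.0 μM THZ531, and overlapped DMSO in both. The log2 FC was 0.18 (95% interval -0.28 to 0.64), 0.01 (-0.45 to 0.46) and 0.36 (-0.09 to 0.82) with the lapatinib combination, the nilotinib combination and 1.0 μM THZ531. None of these passed the test in the main fit (edgeR adjusted p = 0.456, 0.978 and 0.135). By mitochondrial mRNA scaling ABCC1 was called lower in both combinations (-0.48, adjusted p = 0.0415, and -0.61, adjusted p = 0.0107), and with only the groups compared in the fit it was called higher with 1.0 μM THZ531 (0.39, adjusted p = 0.0339). The direction for ABCG2 and ABCC1 in the combinations thus depends on the scaling.

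ABCB1 gave 0, 2 and 0 reads in the DMSO libraries, 2, 4 and 0 with 0.1 μM THZ531, 14, 0 and 0 with lapatinib, and 0, 6 and 0 with nilotinib. It gave 4, 2 and 3 reads with the lapatinib combination, 8, 2 and 8 with the nilotinib combination, and 2, 0 and 2 with 1.0 μM THZ531. It was thus listed at 0 in 8 of 21 libraries, where a count of 0 allows up to 3 reads of about 104639800, and no fold change is given because all groups lay near this floor.

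**Figure D2:**
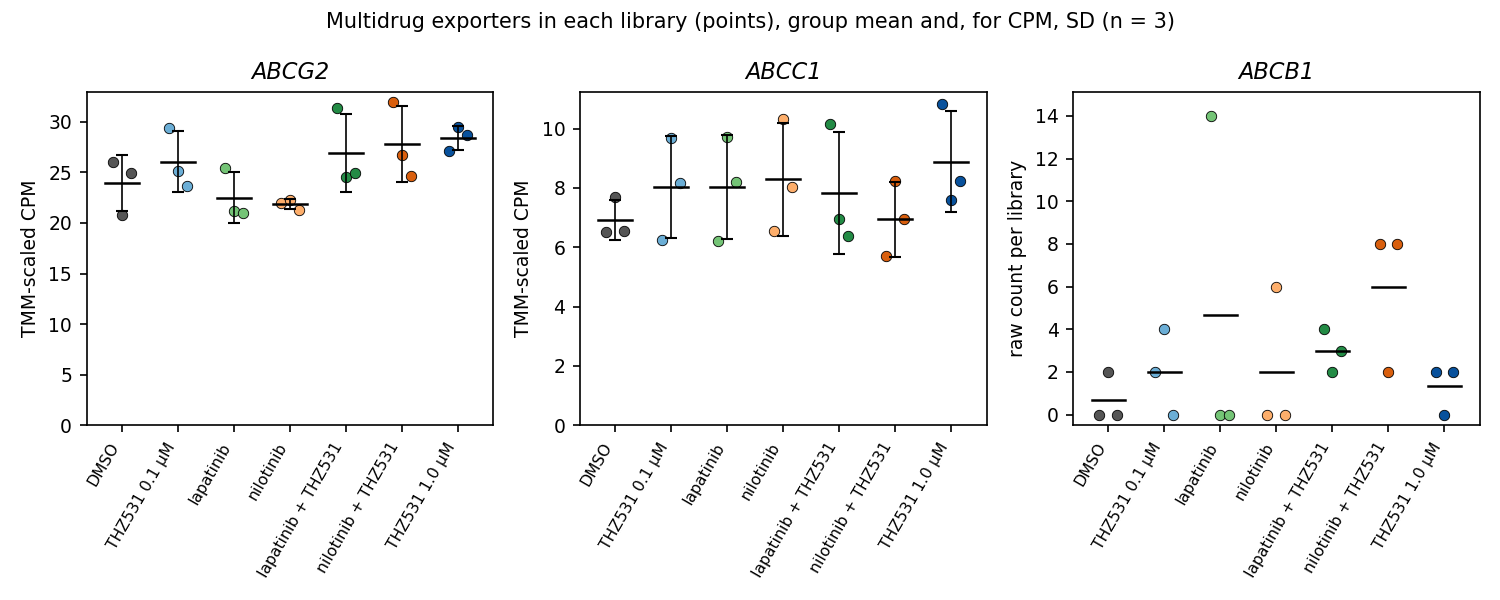
Values of ABCG2 and ABCC1 (TMM-scaled CPM) and ABCB1 (raw counts per library) in each library (points) of the 7 groups, with the group mean as a line and, for CPM, the SD as a bar (n = 3). ABCG2 lies between 20.8 and 32.0 CPM throughout, ABCC1 between 5.69 and 10.8 CPM, and ABCB1 at 14 reads or fewer.

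In both combinations and with 1.0 μM THZ531, 22 of the 35 tested members were called in at least 1 of the 3 treatments, and 0 of them in opposite directions. Opposite calls were not counted over all tested genes, so this agreement does not set the members apart. With the lapatinib combination 11 members rose and 5 fell, against 72.1% of all 16036 tested genes called (34.3% higher, 37.8% lower). With the nilotinib combination 12 rose and 5 fell, against 71% of all genes called (33.7% higher, 37.3% lower), and with 1.0 μM THZ531 14 rose and 4 fell, against 69.9% (33.1% higher, 36.8% lower). By TMM scaling 14.3%, 14.3% and 11.4% of members were thus called lower, and their median log2 FC was 0.17, 0.19 and 0.20, against -0.01 over all tested genes in each treatment. By library size alone the splits were 5 higher and 12 lower, 6 higher and 11 lower, and 8 higher and 8 lower, with 34.3%, 31.4% and 22.9% of members lower against 48.4%, 47.1% and 45.6% of all genes. By mitochondrial mRNA they were 0 higher and 20 lower, 0 higher and 19 lower, and 2 higher and 13 lower. On that scale 57.1% and 54.3% of members were lower in the combinations, close to the 58.4% and 55.9% of all genes, and 37.1% against 52.5% with 1.0 μM THZ531, so the lower share of falls among members held in the combinations only under some scalings. The median log2 FC on that scale was -0.51, -0.43 and -0.35 for members and -0.69, -0.63 and -0.55 for all genes. Changes beyond 1 on the log2 scale were few: ABCA1 and ABCG4 fell and ABCC11 rose with the lapatinib combination (21.3% of all genes lower, 7.9% higher), ABCB9 and ABCG4 fell and ABCA10 rose with the nilotinib combination (20.8% and 6.54%), and ABCF3 fell and TAP2 rose with 1.0 μM THZ531 (18.9% and 5.77%). The 3 treatments share the DMSO libraries. In all 3, 9 members (25.7%) were higher against 27.2% of all genes, 4 members (11.4%) were lower against 30.8%, and 13 members (37.1%) were called in none against 17%.

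**Figure D3:**
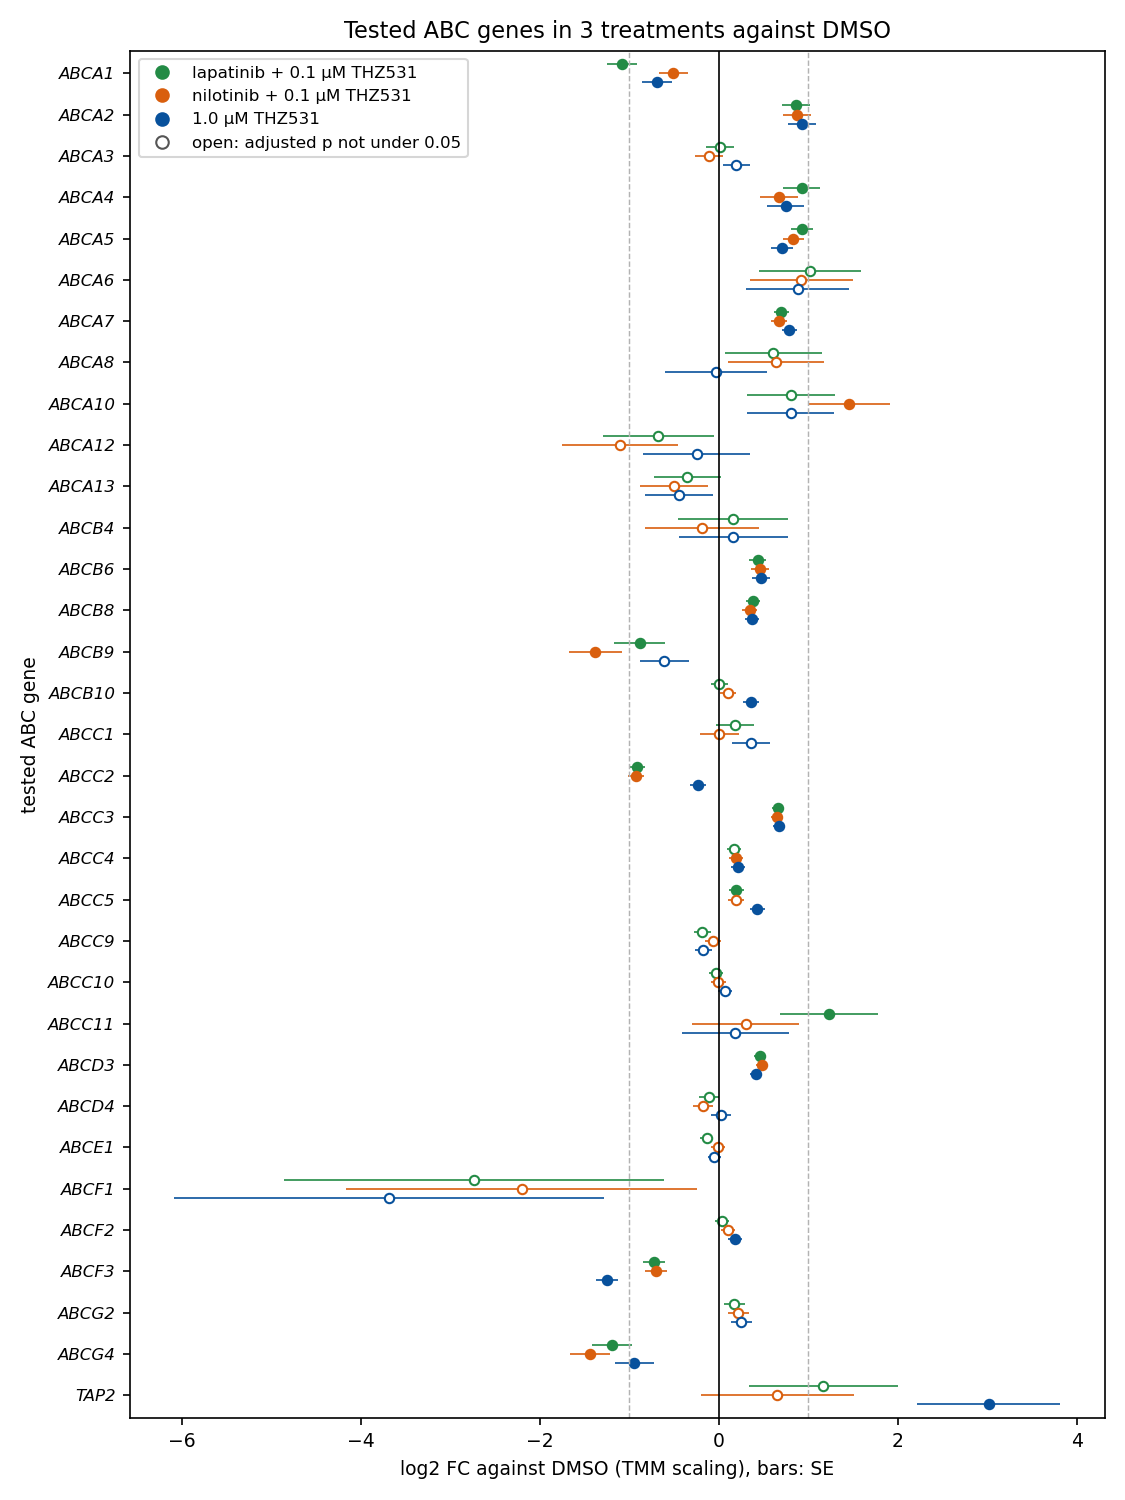
Log2 FC against DMSO (TMM scaling, bars: SE) of tested ABC genes with the lapatinib combination, the nilotinib combination and 1.0 μM THZ531, with filled points for an adjusted p under 0.05 and dashed lines at -1 and 1. ABCA1, ABCC2, ABCF3 and ABCG4 lie left of 0 in all 3 treatments, and ABCA2, ABCA5, ABCA7 and ABCC3 right of 0, although by mitochondrial mRNA scaling ABCC3 had a log2 FC of -0.03 with the lapatinib combination and no rise of these 4 passed the test except that of ABCA2 with 1.0 μM THZ531.

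The 4 members that fell in all 3 treatments were ABCC2, ABCF3, ABCA1 and ABCG4. Their 250 bases before 1 annotated transcription start are shown with that of ABCG2, since these are the genes the comparison turns on. ABCG2 has 5 listed starts and ABCG4 has 2, and the start nearest that of the canonical transcript was taken. Which start these cells use was not tested. RefSeq (GRCh38.p14) windows were available for 37 of the 47 members, and both strands were searched for the GC box GGGCGG, the core bound by the AHR-ARNT dimer GCGTG, the E-box CACGTG, the CCAAT box CCAAT, the TATA box TATAAA and the cyclic AMP response element (CRE) TGACGTCA. Capitals mark a match on either strand, written as it appears on the gene's strand, and no base was shared by different motifs. The windows are ABCG2 chr4:88158640-88158889 on the minus strand, ABCA1 chr9:104928156-104928405 on the minus strand, ABCC2 chr10:99782390-99782639 on the plus strand, ABCF3 chr3:184185949-184186198 on the plus strand and ABCG4 chr11:119148802-119149051 on the plus strand.
ABCG2: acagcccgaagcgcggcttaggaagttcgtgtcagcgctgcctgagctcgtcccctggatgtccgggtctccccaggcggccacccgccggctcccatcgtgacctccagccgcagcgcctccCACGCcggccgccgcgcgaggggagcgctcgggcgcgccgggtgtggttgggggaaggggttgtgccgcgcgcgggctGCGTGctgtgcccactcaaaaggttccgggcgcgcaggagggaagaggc
ABCA1: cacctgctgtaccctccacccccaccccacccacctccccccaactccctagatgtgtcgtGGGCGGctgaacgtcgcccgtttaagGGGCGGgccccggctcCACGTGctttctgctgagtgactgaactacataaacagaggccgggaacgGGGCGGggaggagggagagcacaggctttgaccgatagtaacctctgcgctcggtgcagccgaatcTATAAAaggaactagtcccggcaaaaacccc
ABCC2: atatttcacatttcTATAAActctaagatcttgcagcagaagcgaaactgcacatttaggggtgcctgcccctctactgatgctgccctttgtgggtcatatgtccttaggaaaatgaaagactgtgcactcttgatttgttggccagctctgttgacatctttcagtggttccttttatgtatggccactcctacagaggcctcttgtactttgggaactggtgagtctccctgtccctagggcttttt
ABCF3: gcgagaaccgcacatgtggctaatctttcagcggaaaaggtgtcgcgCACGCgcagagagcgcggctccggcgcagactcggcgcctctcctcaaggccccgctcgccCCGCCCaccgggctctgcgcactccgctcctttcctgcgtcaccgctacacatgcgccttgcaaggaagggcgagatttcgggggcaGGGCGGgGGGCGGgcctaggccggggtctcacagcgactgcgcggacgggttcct
ABCG4: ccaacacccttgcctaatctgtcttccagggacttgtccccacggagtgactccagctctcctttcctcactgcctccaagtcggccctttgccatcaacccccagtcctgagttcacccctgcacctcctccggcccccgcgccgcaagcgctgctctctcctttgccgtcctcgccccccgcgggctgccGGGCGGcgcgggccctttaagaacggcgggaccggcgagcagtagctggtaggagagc
The ABCC2 window was the poorest in G and C (45.6%, against 61.6% for ABCA1, 66.8% for ABCG4, 69.6% for ABCF3 and 73.6% for ABCG2), and it held 1 TATAAA and no other of these motifs. ABCG2 held 2 matches to the AHR core, ABCA1 held 3 GC boxes, 1 E-box and 1 TATAAA, ABCF3 held 3 GC boxes and 1 AHR core, and ABCG4 held 1 GC box. Among the 37 members' windows the GC box stood in 54.1%, the AHR core in 43.2%, the E-box in 13.5%, CCAAT in 24.3%, TATAAA in 16.2% and the CRE in 2.7%, against 58.6%, 40.3%, 7.9%, 34.6%, 9.1% and 2.44% of 15843 protein-coding windows. The 4 members that fell share none of the 6 motifs across all of their windows. A match to these letters describes the window and does not show that a factor binds there.

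ABCC2 (MRP2), an exporter of glutathione and glucuronide conjugates, read 30.3, 27.2 and 28.3 CPM in DMSO, 16.9, 13.5 and 15.1 with the lapatinib combination, and 17.0, 13.9 and 14.2 with the nilotinib combination. It read 23.0, 26.7 and 23.1 CPM with 1.0 μM THZ531. All combination libraries lay below all others, and those of the high dose lay just under DMSO. The log2 FC was -0.91 ± 0.09 (SE, n = 3 per group; edgeR adjusted p = 1.7e-08) and -0.93 ± 0.09 (1.49e-08) with the combinations, 0.53 times the DMSO level in both, and -0.23 ± 0.09 (0.0241) with 1.0 μM THZ531. The call at 1.0 μM THZ531 was lost without DMSO replicate 1 (log2 FC -0.19, adjusted p = 0.0998) and without replicate 1 or 3 of the high dose.

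ABCF3, a cytosolic ABC protein with no membrane part, read 36.3, 41.5 and 39.1 CPM in DMSO, 22.1, 26.8 and 21.9 with the lapatinib combination, 22.3, 24.6 and 25.0 with the nilotinib combination, and 17.9, 11.97 and 19.3 with 1.0 μM THZ531. Here the order was the reverse of that of ABCC2, with the high dose lowest and its libraries apart from both combinations. The log2 FC was -0.72 ± 0.12 (edgeR adjusted p = 2.22e-05), -0.70 ± 0.12 (3.16e-05) and -1.25 ± 0.12 (2.09e-08), the last of these 0.42 times the DMSO level.

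ABCA1, which hands cellular cholesterol and phospholipid to apolipoprotein A-I, read 5.73, 5.13 and 5.14 CPM in DMSO, 2.16, 2.78 and 2.64 with the lapatinib combination, 2.91, 3.63 and 4.74 with the nilotinib combination, and 3.64, 2.71 and 3.55 with 1.0 μM THZ531. Every library of these treatments was below every DMSO library. Its log2 FC was -1.08 ± 0.17, -0.51 ± 0.17 and -0.69 ± 0.17 (edgeR adjusted p = 1.09e-05, 0.0106 and 0.00107), and the call with the nilotinib combination was lost without replicate 1 of that group (log2 FC -0.35, adjusted p = 0.0755).

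ABCG4, a sterol exporter studied mostly in brain, was rarer, at 1.11, 1.21 and 0.95 CPM in DMSO, 0.43, 0.54 and 0.47 with the lapatinib combination, 0.38, 0.30 and 0.53 with the nilotinib combination, and 0.54, 0.50 and 0.66 with 1.0 μM THZ531. No treated library of these 3 groups reached a DMSO library. The log2 FC was -1.19 ± 0.22, -1.44 ± 0.22 and -0.94 ± 0.22 (edgeR adjusted p = 6.52e-05, 9.47e-06 and 0.000631).

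**Figure D4:**
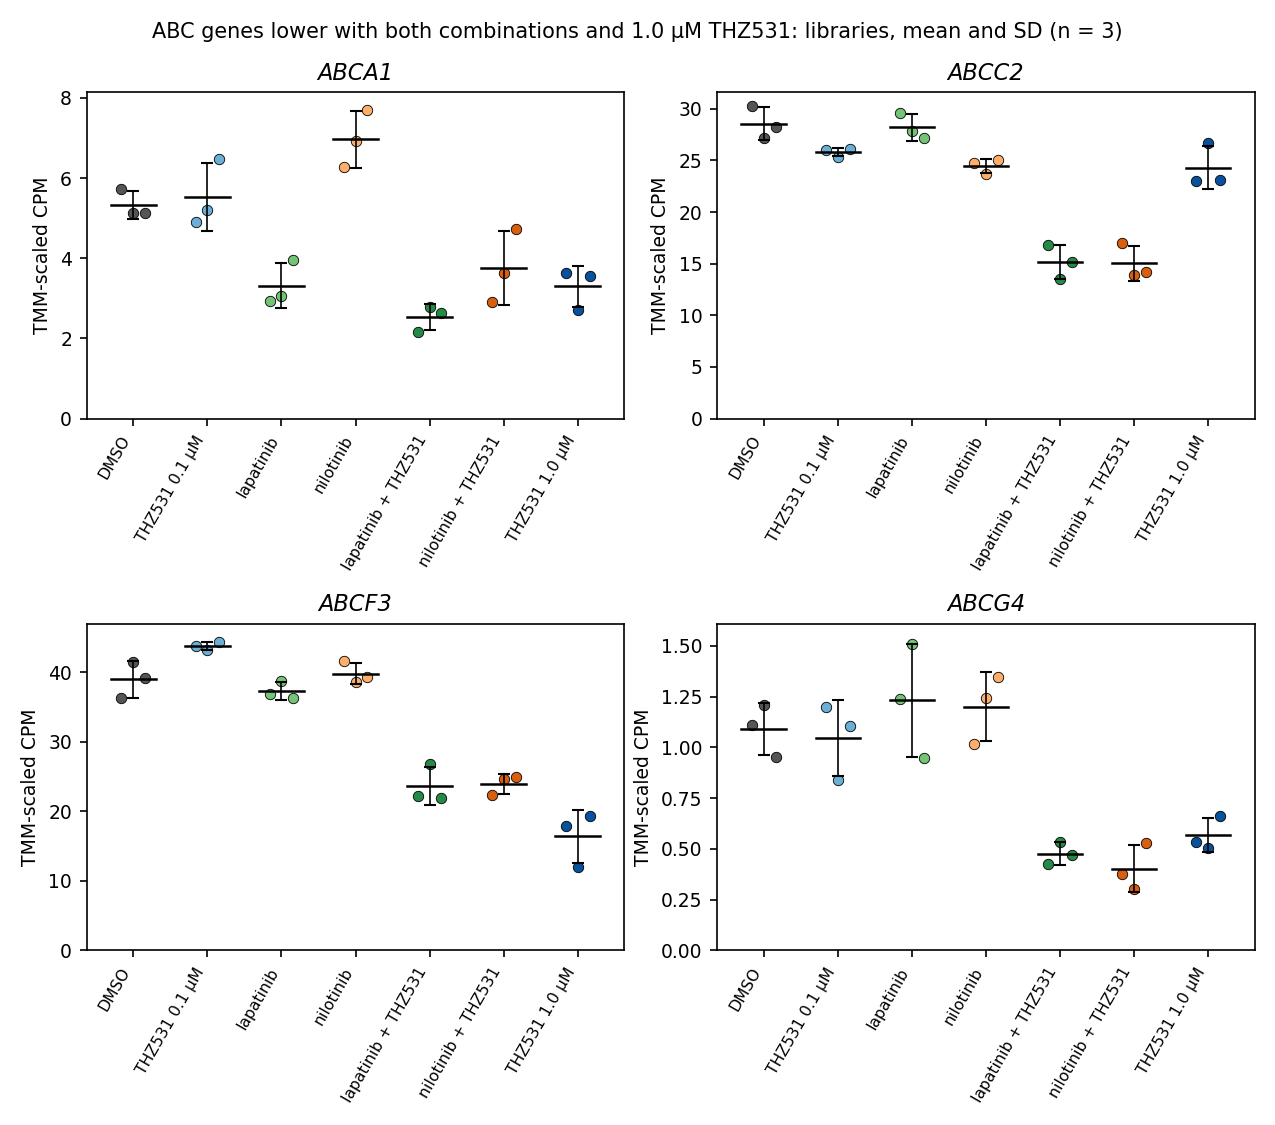
TMM-scaled CPM of ABCA1, ABCC2, ABCF3 and ABCG4 in each library (points) of the 7 groups, with the group mean as a line and the SD as a bar (n = 3). The 9 libraries of the combinations and of 1.0 μM THZ531 lie below DMSO in each panel, ABCC2 is lowest in the combinations, ABCF3 with 1.0 μM THZ531, and ABCA1 is also low with lapatinib alone (2.93 to 3.96 CPM).

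Among the lipid transporters of the ABCA family, 11 of 12 members were tested. With the lapatinib combination 4 rose and 1 fell, with the nilotinib combination 5 rose and 1 fell, and with 1.0 μM THZ531 4 rose and 1 fell. Of all tested genes 34.3%, 33.7% and 33.1% were called higher and 37.8%, 37.3% and 36.8% lower, in that order. By mitochondrial mRNA scaling the 4 that rose in all 3 treatments kept a positive log2 FC in each, but only ABCA2 with 1.0 μM THZ531 passed the test (0.39, adjusted p = 0.0319). ABCA2, a lipid transporter of endosomes and lysosomes, read 37.9, 45.7 and 39.5 CPM in DMSO, 56.2, 79.5 and 87.5 with the lapatinib combination, 60.8, 79.3 and 85.5 with the nilotinib combination, and 83.1, 78.8 and 72.7 with 1.0 μM THZ531. Treated and DMSO libraries did not overlap, and replicate 1 was the lowest in both combinations. The log2 FC was 0.86 ± 0.16, 0.87 ± 0.16 and 0.93 ± 0.16 (edgeR adjusted p = 5.88e-05, 5.05e-05 and 2.67e-05).

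ABCA5, also of endosomes and lysosomes, read 5.04, 3.43 and 3.88 CPM in DMSO, 8.35, 7.14 and 8.05 with the lapatinib combination, 7.60, 7.41 and 7.005 with the nilotinib combination, and 6.88, 6.58 and 6.73 with 1.0 μM THZ531. Its log2 FC was 0.93 ± 0.12, 0.83 ± 0.12 and 0.71 ± 0.12 (edgeR adjusted p = 7.15e-07, 3.22e-06 and 2.6e-05). ABCA7, a phospholipid transporter close in sequence to ABCA1, read 5.57, 6.01 and 5.32 CPM in DMSO, 9.41, 8.88 and 9.15 with the lapatinib combination, 8.39, 9.77 and 8.75 with the nilotinib combination, and 9.31, 10.2 and 9.70 with 1.0 μM THZ531. Its log2 FC was 0.70, 0.67 and 0.79, each with an SE of 0.09 (edgeR adjusted p = 4.42e-07, 8.26e-07 and 9.84e-08), and for both genes the treated libraries lay above DMSO. ABCA1 and ABCA7 thus moved in opposite directions.

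ABCA4, the retinoid transporter of photoreceptors, rose from a low level (0.459 ± 0.0153 CPM in DMSO, SD, n = 3), with a log2 FC of 0.93, 0.67 and 0.75. ABCA10, of the chromosome 17 cluster with ABCA5, ABCA6, ABCA8 and ABCA9, was called with the nilotinib combination alone (1.45 ± 0.46, edgeR adjusted p = 0.00831) on 22, 12 and 9 reads against 6, 6 and 8 in DMSO, and the call was lost without the library of 22 reads (1.02, adjusted p = 0.0886). ABCA3, which loads surfactant lipid in the lung (log2 FC from -0.11 to 0.20 over the 3 treatments), ABCA6 (0.88 to 1.02), ABCA8 (-0.03 to 0.64), ABCA12, a skin lipid transporter (-1.10 to -0.25), and ABCA13 (-0.50 to -0.35) passed no test by TMM scaling, and all but ABCA3 were under 1 CPM in DMSO. ABCA3, ABCA12 and ABCA13 were called lower in both combinations by mitochondrial mRNA scaling.

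In the ABCB family 6 of 9 members were tested. The mitochondrial members ABCB6, which carries porphyrins, and ABCB8 rose in all 3 treatments, with log2 FC of 0.44, 0.46 and 0.47 and of 0.38, 0.34 and 0.37 (edgeR adjusted p from 0.000215 to 0.000796 over the 6 tests), but by mitochondrial mRNA scaling these were -0.24, -0.16 and -0.06 and -0.30, -0.27 and -0.16 and passed no test. An annotated read-through gene shares 54.6% of the exonic bases of ABCB6, and the reads of the pair may be split or lost in counting. ABCB10, needed for heme synthesis, rose with 1.0 μM THZ531 (0.36 ± 0.09, edgeR adjusted p = 0.00153; -0.20 by mitochondrial mRNA scaling). It read 25.6, 22.1 and 25.0 CPM in DMSO, 27.0, 23.2 and 22.9 with the lapatinib combination, 27.4, 24.9 and 26.0 with the nilotinib combination, and 33.0, 30.4 and 29.6 with 1.0 μM THZ531. Its high-dose libraries lay above all others of these 4 groups, and by mitochondrial mRNA scaling it was called lower in both combinations (-0.68 and -0.52).

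ABCB9 (TAPL), which moves peptides into lysosomes, stood at 0.36 ± 0.0469 CPM in DMSO (SD, n = 3) and fell with both combinations, at a log2 FC of -0.89 ± 0.28 (edgeR adjusted p = 0.00809) and -1.38 ± 0.29 (0.000305). With 1.0 μM THZ531 it had -0.61 ± 0.27 (0.0529), and -1.16 by mitochondrial mRNA scaling (adjusted p = 0.00268). OGFOD2 and ARL6IP4, on the opposite strand, share 12.5% and 11.97% of its exonic bases, and the libraries were not stranded. ABCB4, the phosphatidylcholine transporter of bile, had 0.0786 CPM in DMSO and passed no test (log2 FC from -0.19 to 0.16).

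Of the organic anion exporters and channel subunits of the ABCC family 8 of 11 were tested. ABCC3 (MRP3), an exporter of glucuronides and bile acids, read 47.7, 49.5 and 46.2 CPM in DMSO, 77.2, 69.6 and 79.4 with the lapatinib combination, 78.8, 74.5 and 72.2 with the nilotinib combination, and 72.9, 80.6 and 74.2 with 1.0 μM THZ531. The treated libraries lay above DMSO by far more than their spread, and the 3 treatments overlapped each other. Its log2 FC was 0.66, 0.65 and 0.67, each with an SE of 0.06 (edgeR adjusted p = 1.7e-08 with the lapatinib combination), while ABCC2, with related substrates, fell. By mitochondrial mRNA scaling ABCC3 had a log2 FC of -0.03, 0.04 and 0.13, none of which passed the test.

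ABCC4 (MRP4), which exports cyclic nucleotides and prostaglandins, had a log2 FC of 0.17, 0.19 and 0.21 (edgeR adjusted p = 0.0647, 0.0388 and 0.0214), and ABCC5 (MRP5), also of cyclic nucleotides, 0.20, 0.19 and 0.43 (0.0483, 0.0527 and 0.000177). Both genes were negative in all 3 treatments by mitochondrial mRNA scaling and were called lower in both combinations (ABCC4 -0.52 and -0.43, ABCC5 -0.48 and -0.42), opposite to their calls by TMM. The call of ABCC5 with the lapatinib combination was lost on leaving out any of 14 of the 21 libraries. ABCC11 (MRP8), known for setting earwax type, was called with the lapatinib combination (1.23 ± 0.54, adjusted p = 0.0496) on 6, 17 and 15 reads against 7, 6 and 8 in DMSO, and that call was lost without any of 17 libraries. ABCC9 (SUR2), the regulatory subunit of ATP-sensitive potassium channels (-0.18 to -0.06 over the 3 treatments), ABCC10 (MRP7, -0.03 to 0.07) and ABCC1 (above) passed no test by TMM scaling, whereas by mitochondrial mRNA scaling ABCC9 and ABCC10 were called lower in all 3.

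Of the ABCD transporters, ABCD3 read 138, 117 and 135 CPM in DMSO, 194, 169 and 175 with the lapatinib combination, 185, 174 and 188 with the nilotinib combination, and 176, 166 and 179 with 1.0 μM THZ531. The treated libraries lay above DMSO and overlapped each other. ABCD3 rose with log2 FC of 0.46, 0.49 and 0.42, each with an SE of 0.07 (edgeR adjusted p = 4.08e-06 with the lapatinib combination), but had -0.23, -0.14 and -0.13 by mitochondrial mRNA scaling, none of which passed. ABCD4, which serves cobalamin export from lysosomes, passed no test by TMM scaling (-0.18 to 0.02) and was called lower in all 3 by mitochondrial mRNA scaling (-0.79, -0.79 and -0.51).

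**Figure D5:**
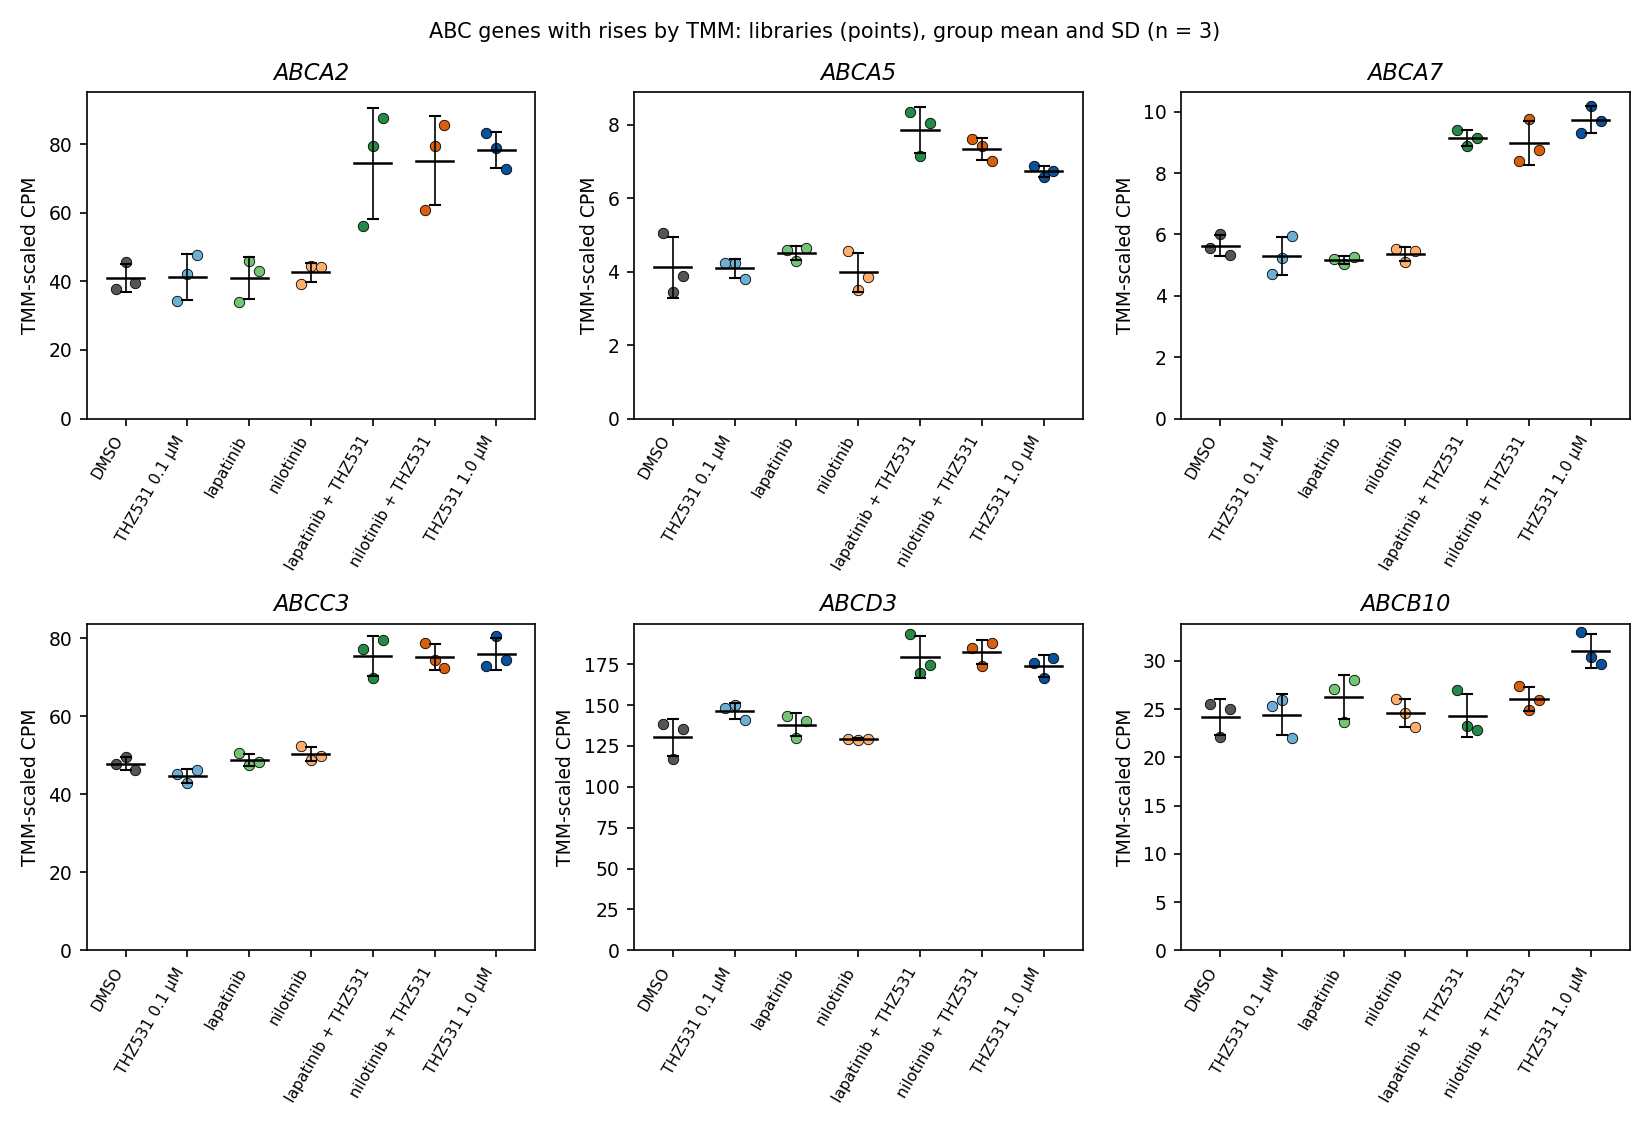
TMM-scaled CPM of ABCA2, ABCA5, ABCA7, ABCC3, ABCD3 and ABCB10 in each library (points) of the 7 groups, with the group mean as a line and the SD as a bar (n = 3). ABCA2, ABCA5, ABCA7, ABCC3 and ABCD3 lie above DMSO in both combinations and 1.0 μM THZ531, ABCB10 is highest with 1.0 μM THZ531, and by mitochondrial mRNA scaling ABCB10 and ABCD3 have a negative log2 FC in all 3 treatments and ABCC3 in the lapatinib combination.

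The ribosome-associated members did not move together. ABCE1 had a log2 FC of -0.14, -0.01 and -0.05, each with an SE of 0.07, and passed no test by TMM scaling, but was called lower in all 3 by mitochondrial mRNA scaling (-0.82, -0.63 and -0.60). ABCF2 was called with 1.0 μM THZ531 only, at 0.18 ± 0.08 (edgeR adjusted p = 0.0417), a call lost without any of 7 libraries and turned to -0.35 by mitochondrial mRNA scaling, and 37.1% of its exonic bases lie also in the ABCF2-H2BK1 read-through gene. ABCF1, an initiation factor partner, gave 0 to 14 reads in 19 of the 21 libraries, 38 in 1 DMSO library and 175 in 1 lapatinib library, and its log2 FC (-3.68 to -2.20, largest SE 2.4) passed no test.

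TAP2 gave 44, 18 and 24 reads in DMSO, 60, 42 and 45 with the lapatinib combination, 48, 18 and 38 with the nilotinib combination, and 487, 22 and 44 with 1.0 μM THZ531. Its rise with 1.0 μM THZ531 (3.01 ± 0.80, edgeR adjusted p = 0.00245) rests on the library of 487 reads and was lost without it (0.55, adjusted p = 0.407). TAP1 was listed at 0 in all 21 libraries. ABCF1, TAP1 and TAP2 lie in the MHC region of chromosome 6, where 88.1% of 101 protein-coding genes from ABCF1 to TAP1 had a mean under 100 counts, against 41.2% of 763 on the rest of the chromosome beyond 3 Mb from that window. Genes that every cell uses were low there too, with 2 to 51 reads for the ribosomal protein gene RPS18 and 0 for the RNA helicase gene DDX39B, so the low counts of these members cannot be read as low expression, and the cause was not tested.

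With 0.1 μM THZ531, lapatinib or nilotinib alone few members moved. ABCC10, an exporter of taxanes and other drugs, was the 1 member of 35 called with 0.1 μM THZ531, against 6.09% of all genes, at 19.1, 18.5 and 20.8 CPM against 16.5, 17.0 and 14.3 in DMSO. The log2 FC was 0.29 ± 0.08 (edgeR adjusted p = 0.0393), the treated libraries lay above DMSO, and the call was lost without any of 9 libraries. Another 3 members had an unadjusted p under 0.05, or 4 of 35 (11.4%) with ABCC10, against 19.2% of all genes, and DESeq2 called 1 member against 8.7% of all genes. ABCC10 was not called in the combinations that contain the same dose (-0.03 and -0.01).

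Lapatinib alone gave 0 called members by edgeR, against 0.312% of all genes, with 3 of 35 (8.57%) at an unadjusted p under 0.05 against 7.16% of all genes, and 1 of the 34 with an adjusted p by DESeq2, against 0.837% of all genes. The member called by DESeq2 was ABCA1, named here after its values were seen. It read 2.93, 3.07 and 3.96 CPM with lapatinib, all below DMSO, at a log2 FC of -0.69 ± 0.17 (edgeR adjusted p = 0.107; 0.00931 to 0.118 over 10 ways of processing). Nilotinib alone gave 0 called members by edgeR and 0 by DESeq2, against 0.343% and 1.69% of all genes, with 2 of 35 (5.71%) at an unadjusted p under 0.05 against 9.67%. ABCA1 read 6.28, 6.93 and 7.71 CPM with nilotinib, all above DMSO, at a log2 FC of 0.39 that did not pass (edgeR adjusted p = 0.426). ABCG2 had a log2 FC of -0.09 (95% interval -0.34 to 0.16) with lapatinib and -0.13 (-0.38 to 0.12) with nilotinib.

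The combinations were compared with 1.0 μM THZ531 to ask whether the transporter genes differed between them. With the lapatinib combination 1 member was higher and 4 lower, against 28.9% of all genes called (12.8% higher, 16.1% lower), and with the nilotinib combination 1 was higher and 4 lower, against 24.2% (11.2% higher, 13% lower). ABCC2 was lower in both, at -0.68 ± 0.09 (edgeR adjusted p = 1.15e-05) and -0.69 ± 0.09 (1.18e-05), and ABCF3 was higher in both, at 0.53 ± 0.12 (0.00237) and 0.55 ± 0.12 (0.00215). The ABCF3 calls were lost with only the groups compared in the fit (0.55, adjusted p = 0.0695, and 0.58, adjusted p = 0.0651), and the one with lapatinib also by mitochondrial mRNA scaling (0.39, adjusted p = 0.0627). ABCB10 was lower in both, at -0.35 ± 0.09 (edgeR adjusted p = 0.0058) and -0.25 ± 0.09 (0.0494), the last call lost without any of 16 libraries and by mitochondrial mRNA scaling (adjusted p = 0.173). ABCC5 with the lapatinib combination (-0.24, adjusted p = 0.047) and TAP2 with the nilotinib combination (-2.36, adjusted p = 0.0323) were also called. The ABCC5 call was lost without any of 15 libraries, with the replicate block (adjusted p = 0.0557) and by mitochondrial mRNA scaling (0.0599), and TAP2 turned to 0.11 (adjusted p = 0.934) without the library of 487 reads. ABCG2 differed by -0.08 (95% interval -0.33 to 0.17) and -0.03 (-0.28 to 0.22) and ABCC1 by -0.18 (-0.64 to 0.27) and -0.35 (-0.81 to 0.10), none past the test.

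An interaction was tested as the log2 FC of a combination less the sum of those of its 2 parts. It was called for 10 members with lapatinib (7 positive, 3 negative, against 60.3% of all genes, 28.2% positive and 32% negative) and for 15 with nilotinib (10 positive, 5 negative, against 56.8%, 25.6% positive and 31.2% negative). For ABCC2 the single effects of lapatinib and 0.1 μM THZ531 summed to -0.16, against -0.91 in the combination (difference -0.75 ± 0.13, edgeR adjusted p = 3.71e-05), and for ABCF3 to 0.10 against -0.72 (-0.83 ± 0.17). With nilotinib these differences were -0.56 ± 0.13 and -0.90 ± 0.17. ABCG4 had -1.31 and -1.52, and the interactions of ABCC2, ABCF3 and ABCG4 were called negative under each of 10 ways of processing. For ABCA1 the sum with lapatinib was -0.63 against -1.08 in the combination and the interaction was not called by TMM scaling (but called negative by mitochondrial mRNA, -0.997, adjusted p = 0.00119), whereas with nilotinib the sum was 0.44 against -0.51 (-0.94 ± 0.23, adjusted p = 0.00187). On the positive side ABCC3 had 0.73 and 0.68, ABCA7 0.91 and 0.83, ABCA5 0.81 and 0.89, ABCA2 0.85 and 0.81, and ABCB8 0.51 and 0.40 with lapatinib and nilotinib, but by mitochondrial mRNA scaling none of these 5 passed, and ABCB8 turned negative with both. ABCA10 had 2.91 and 3.02, which rest on 2, 4 and 0 reads with 0.1 μM THZ531. With nilotinib ABCB6 (0.36), ABCB9 (-1.04) and ABCD3 (0.33) were also called, of which ABCB6 lost the call without any of 4 libraries and ABCB9 without any of 8. ABCB6 and ABCD3 lost the call by mitochondrial mRNA scaling, at -0.07 (adjusted p = 0.865) and -0.11 (0.739). ABCG2 (0.14, 95% interval -0.22 to 0.49, and 0.22, -0.13 to 0.58) and ABCC1 (-0.25, -0.90 to 0.39, and -0.47, -1.12 to 0.17) had no called interaction by TMM scaling, but by mitochondrial mRNA scaling that of ABCC1 was called negative with both inhibitors (-0.79, adjusted p = 0.0235, and -0.96, adjusted p = 0.0066).

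Genes that work with the transporters were counted in 9 hand-made lists, with counts in the order lapatinib combination, nilotinib combination and 1.0 μM THZ531. Of all tested genes 34.3%, 33.7% and 33.1% were called higher and 37.8%, 37.3% and 36.8% lower. The TMM-based directions of the lists carry the same shift as those of the members. Mitochondrial mRNA scaling moved log2 FC by -0.69, -0.62 and -0.55, near in size to the glutathione medians below. Of 16 tested genes of glutathione synthesis and conjugation, which supply substrates of ABCC1, ABCC2 and ABCC3, 13, 15 and 14 rose and 0, 0 and 1 fell, with a median log2 FC of 0.72, 0.72 and 0.68. The gene that fell with 1.0 μM THZ531 was GCLC, the catalytic subunit of glutathione synthesis (-0.48), and GSTT2B rose most with the lapatinib combination (2.13) from 0.0389 CPM. Of 14 genes of peptide loading and MHC class I, 11, 9 and 10 rose and 2, 2 and 2 fell, among them the interferon-response factor gene IRF1 (-1.24 with the lapatinib combination). Both medians lay above those of all genes, as did that of the ABC members.

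The other lists held members of both directions. Of 20 genes of mitochondrial iron, heme and iron-sulfur clusters, where ABCB6, ABCB8 and ABCB10 act, 10, 9 and 8 rose and 9, 9 and 9 fell, including ALAS1, the first enzyme of heme synthesis (-1.23), and ISCA2 (-1.76 with the lapatinib combination). Of 12 peroxisomal partners of ABCD3, 4, 4 and 4 rose and 7, 6 and 6 fell, with PEX14, of the peroxisomal import complex, at -1.60. Of 14 genes of ribosome recycling and translation control 4, 5 and 4 rose and 6, 5 and 6 fell, with LTN1, a ubiquitin ligase of stalled ribosomes, at -1.79 and YAE1 at -2.68.

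Of 16 regulators and acceptors of sterol efflux, 7, 7 and 9 rose and 6, 6 and 5 fell, with LCAT, which esterifies cholesterol on lipoproteins, at -1.96 and APOE at 1.70 from 0.0594 CPM with the lapatinib combination. Of 15 transcription factors linked to multidrug exporters, 6, 7 and 3 rose and 7, 7 and 7 fell. SP1, which binds GC boxes, had -2.46 and KEAP1, which restrains NRF2, -2.39 with the lapatinib combination. ABCG2 itself was not called in the main fit. Of 19 SLC carriers and other exporters 6, 6 and 7 rose and 6, 6 and 4 fell, with the folate carrier gene SLC46A1 at -1.89. The potassium channel gene KCNJ8, a pore partner of ABCC9, was the 1 tested gene of its list. It fell by 1.89, 2.04 and 2.73 on the log2 scale, while ABCC9 was not called in the main fit.

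Transcription of long genes is known to depend on CDK12. Across the 35 tested members the Pearson correlation of log2 FC with the log10 genomic span was 0.09, 0.08 and 0.04 in the 3 treatments, given as a description without a test, since genes share libraries. Over 13747 tested protein-coding genes it was -0.14, -0.10 and -0.11. The members spanned a median of 64.85 kb, against 31.2 kb for those genes. The 4 members that fell in all 3 treatments spanned 7807 bp (ABCF3), 13615 bp (ABCG4), 69955 bp (ABCC2) and 147150 bp (ABCA1).

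The 12 members that did not pass the filter all lay at 14 reads or fewer in every library. ABCA9 reached 10 reads, ABCB1 14, the bile salt exporter gene ABCB11 8, ABCB5 6, ABCC6 5, and the sulfonylurea receptor gene ABCC8 12. The sterol transporter genes ABCG1, ABCG5 and ABCG8 reached 12, 6 and 2 reads, and ABCC12 and ABCD2 2 reads in 1 library each. TAP1 is described above with the MHC region. At about 104639800 counts per library these genes were at or near the floor, and no change in them could be measured.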

How the data were processed

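RNA of Hs578T cells was sequenced in 21 libraries as unstranded, polyA-selected paired-end reads. The authors aligned reads to GRCh38 with HISAT2 2.1.0, counted them per gene with featureCounts (version and annotation not given in the sources used here) and deposited raw counts without normalization. Between 61.6% and 66.4% of the counts in a library were even numbers, so both ends of a pair may have been counted; halved counts were therefore tried. Of the rows 650 had no gene name in RefSeq and 0 columns were left unused. Reads of overlapping genes on either strand can be mixed.

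Counts were filtered with filterByExpr, scaled by TMM and fitted with the edgeR 4.0.16 quasi-likelihood test in R 4.3.3, with 1 mean per group over all 21 libraries and Benjamini-Hochberg adjustment over 16036 genes. The main test of the study was DESeq2; here DESeq2 1.42.0 was an alternative. On data simulated for the lapatinib combination, 200 of 16036 genes were changed, in random directions. Of genes changed by 0.5, 1 and 2 (log2), 32 of 67, 50 of 67 and 65 of 66 were called, with 5 unchanged genes called. In the data 72.1% of genes were called with this combination, so the simulation does not test the scaling at such broad change. Transcript lengths came from GENCODE v44, names and promoters from RefSeq (GRCh38.p14). Alternatives were other scalings (DESeq2 size factors, library size, mitochondrial mRNAs), other filters (none, or at least 10 counts in every library), a replicate block, only the groups compared, halved counts and leaving out each library.

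The ABC genes and partner lists were chosen with earlier results of these data known. Values per library are given for ABCG2, ABCB1 and ABCC1 and, at 1 CPM or more, for the largest called changes in each direction (4 with the lapatinib combination, 2 with each of the other 2 strong treatments) and for up to 4 called members of each other comparison; ABCG4 and ABCA1 are also described as members lower in all 3 treatments, and ABCD3 was added after its values were seen. Some members and other genes are not reported here, though counts of members include them. The partner genes named had the largest changes among those strongly changed in all 3 treatments, apart from GCLC, named after its values were seen. A search of protein sequences for ATP-binding motifs was not run, since no protein sequences were used here. Deviations of same-numbered replicates correlated at r from -0.847 to 0.912, with 36 of 63 pairs above 0.1, so the main fit has no block for the number.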

Additional observations from a re-analysis of the deposited data

Results flagged for a closer look

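Results stand here because the effect of 0.1 μM THZ531 with an inhibitor present differed from its effect without it, by the interaction test in edgeR (adjusted p under 0.05). With lapatinib this held for 10 ABC genes, and the members named are ABCC3 at 0.73 (log2), ABCA7 at 0.91 and ABCC2 at -0.75. With nilotinib it held for 15 ABC genes, with ABCC3 at 0.68, ABCA7 at 0.83, ABCA5 at 0.89 and ABCF3 at -0.90. Of all tested genes 60.3% and 56.8% were called in these interactions. By mitochondrial mRNA scaling ABCC2 had -1.29 (lapatinib) and ABCF3 -1.35 (nilotinib) and stayed called, whereas ABCC3 had 0.17 and 0.24, ABCA7 0.36 and 0.38 and ABCA5 0.47 (nilotinib) and were not called.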

How the results depend on the processing

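Strongly changed ABC genes (beyond 1 on the log2 scale) with the lapatinib combination were 5 lower by library size alone (14.3%, against 28.8% of all genes) and 7 by mitochondrial mRNA scaling (20% against 38.8%) against 2, and 0 higher by DESeq2, the stricter filter, halved counts, library size, mitochondrial mRNA or no filter against 1. With the nilotinib combination they were 4 lower by library size (11.4% against 27.6%) and 7 by mitochondrial mRNA (20% against 36.8%) against 2, and 0 higher by the stricter filter, halved counts, mitochondrial mRNA or only the groups compared. With 1.0 μM THZ531 2 were lower by library size (5.71% against 25.2%) and 6 by mitochondrial mRNA (17.1% against 33.4%) against 1. With 0.1 μM THZ531 0 were called by library size (1043 of all 16036 genes), mitochondrial mRNA (281), no filter or only the groups compared. With lapatinib 1 was called by DESeq2 (129 of 16036 genes), mitochondrial mRNA (35) or the replicate block (68). Combinations against 1.0 μM THZ531 gave 1 and 1 called in only the groups compared and 3 (nilotinib) by mitochondrial mRNA, the last against 2412 of 16036 genes. Shares over all genes were not counted for only the groups compared, no filter or the fits that left out 1 library. The interaction gave 16 with lapatinib by library size, against 8979 of 16036 genes, and 9 with nilotinib by mitochondrial mRNA, against 7018.

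Over 21 fits that each left out 1 library, strongly lower and strongly higher members numbered 1 to 2 and 0 to 2 (lapatinib combination), 2 to 3 and 1 to 2 (nilotinib combination) and 1 to 2 and 0 to 2 (1.0 μM THZ531). Called members numbered 0 to 1 with 0.1 μM THZ531, 0 to 0 with lapatinib and with nilotinib, 3 to 6 in both comparisons with 1.0 μM THZ531, and 10 to 13 and 12 to 16 in the interactions with lapatinib and nilotinib. Calls against DMSO held without every library for 14 of 16, 14 of 17 and 14 of 18 members.

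Signs turned for ABCC3 by mitochondrial mRNA (-0.0264, lapatinib combination), for ABCC10 with 1.0 μM THZ531 by library size (-0.190) and mitochondrial mRNA (-0.473), and for ABCB10 with the lapatinib combination (-0.320 and -0.675), the nilotinib combination (-0.517, mitochondrial mRNA) and 1.0 μM THZ531 (-0.198, mitochondrial mRNA). They turned in both combinations by mitochondrial mRNA, and were called as falls, for ABCG2 (-0.513 and -0.404) and ABCC1 (-0.482 and -0.611), and they turned for TAP2 in the nilotinib combination against 1.0 μM THZ531 without replicate 1 of the latter (0.108; -2.89 to 0.108 over the libraries left out). This list is not complete. By mitochondrial mRNA, signs also turned for ABCB6, ABCB8, ABCC4, ABCC5 and ABCD3 in all 3 strong treatments, and for ABCF2 and ABCG2 with 1.0 μM THZ531. Apart from TAP2, these values differ from the main ones only in the scaling.

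With the replicate block 17, 18 and 20 of 35 members were called in the lapatinib combination, the nilotinib combination and 1.0 μM THZ531. Of all 16036 genes 11682, 11504 and 11386 were called. ABCG2 was called higher with the nilotinib combination (edgeR adjusted p = 0.0478) and 1.0 μM THZ531 (0.0194). ABCC9 was called lower with the lapatinib combination (0.0178) and 1.0 μM THZ531 (0.0267). The replicates come from independent experiments, but the sources used here do not say that a replicate number marks 1 experiment. Deviations of same-numbered libraries correlated at a mean r of 0.161, against -0.0735 for different numbers. This is a weak hint of pairing in the data that the labels do not give. Of 21 libraries 8 correlated best with their own number out of 3, which is near the count expected without pairing. Depth limits the 12 untested members and those on few reads, such as ABCA10, ABCC11 and TAP2.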
